A study of Homo sapiens with 4 samples.

Results

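The 8 genes described here are loci of human pluripotent stem cells that have been linked to the endogenous retrovirus HERV-H. They comprised the lncRNA genes LINC-ROR, ESRG, LINC00458, LINC00678 and LNCPRESS1, the miRNA host gene MIR302CHG, and HHLA1 and ABHD12B, which the annotation lists as protein-coding. They were chosen by gene symbol from 62218 annotated genes with a count entry, and all 8 were among the 27632 genes tested. The annotation gave them 37 transcripts, between 1 for ESRG and 9 for ABHD12B.

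Nanopore cDNA libraries were made from wild-type H1 cells, an established line of human embryonic stem cells (hESCs), in the primed and the naïve state, with 2 libraries per state. Primed hESCs grew in mTeSR1 on Matrigel at normal oxygen. Naïve hESCs, labelled FINE, had been derived from the same H1 primed line by a change to low oxygen and to a medium with Dasatinib, AZD5438, SB590885, PD0325901, Y-27632, LIF, Activin A and bFGF, so that the effect of the state and that of the medium or the oxygen cannot be told apart. The sources do not say whether the 2 replicates of a state were separate cultures, and p-values here measure only the spread between these libraries.

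HERV-H entered the primate genome as a retrovirus, and its long terminal repeat, LTR7, acts as a promoter in human pluripotent cells. Transcripts that begin in such a repeat and splice into unique sequence downstream have been annotated as lncRNA genes, several of which serve as markers of undifferentiated cells. Primed hESCs resemble the epiblast after implantation and naïve hESCs the epiblast before it, and the sets of HERV-H copies in use are known to differ between these states.

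The authors deposited raw counts of alignments over whole transcript spans, introns included and strand ignored, with an alignment counted for every transcript it overlapped and at every place it aligned. The value of a gene was the count of its transcript with the largest mean count, given as CPM, the count scaled to a fixed library total, after TMM normalization, in which edgeR rescales the totals to the bulk of genes. These totals over genes lay between 23489354 and 30936882 counts, from 129276054 to 161548901 counts over all transcripts. Of the genes tested, 70.0% were called at an adjusted p under 0.05 by edgeR's quasi-likelihood test, with 10327 higher and 9007 lower in primed hESCs. With library size in place of TMM the split was 15540 higher against 4503 lower, since the median of all log2 fold changes moved from 0.079 to 0.72, a shift of 0.64. All 8 naïve markers on the list used were lower in primed hESCs and all 7 primed markers were higher by the same test, with DPPA3 at 3469 and 3745 counts in the naïve against 10 and 6 in the primed libraries and THY1 at 0 and 0 against 2039 and 1888. However, THY1, SFRP2, ZIC2 and DUSP6 passed the minimum of 10 counts in 2 libraries only through the primed libraries. DNMT3L passed it only through the naïve ones. For these genes the filter fixed the direction in advance. Of the naïve markers, KLF17 alone took the other sign with library size in place of TMM (log2 0.23) and was not called there. Naïve libraries also held RNA of trophoblast markers, of which 6 of 7 were lower in primed hESCs. Among them, CGA, GATA2, TFAP2A, HAND1 and VTCN1 passed the count minimum only through the naïve libraries. The summed level of the trophoblast markers was 1663 and 1997 CPM in the naïve and 4.49 and 3.56 CPM in the primed libraries, most of it from CGA, a hormone subunit of the placenta. Trophoblast markers moved with the states in every comparison below, and their part in the results was not tested.

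To see which loci carry the element that they have been linked to, the first exon of ESRG, which is known to derive from HERV-H, was aligned with each locus and the 10 kb around it. A match was found in 6 of the 8 loci and ran in the direction of the gene in all 6. For LINC-ROR, ESRG, LINC00458 and LINC00678, the transcript with the largest mean count began within 100 bases of the upstream end of the element. The element was between 5376 and 7510 bases long at these loci. Of the annotated isoforms, 8 of 8 for LINC-ROR and 6 of 7 for LINC00458 start in the element or within 100 bases of it. Some of these start away from its upstream end. In HHLA1 the element lay inside the gene, 25.5 to 30.9 kb from the start of HHLA1-201, and in ABHD12B it lay 21.5 to 24.8 kb from the start of ABHD12B-201. No match of at least 100 bases was found in or near LNCPRESS1 or MIR302CHG, so these 2 loci are described by their own names and not as derived from HERV-H. The map of exons shows these 3 arrangements.

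**Figure D1:**
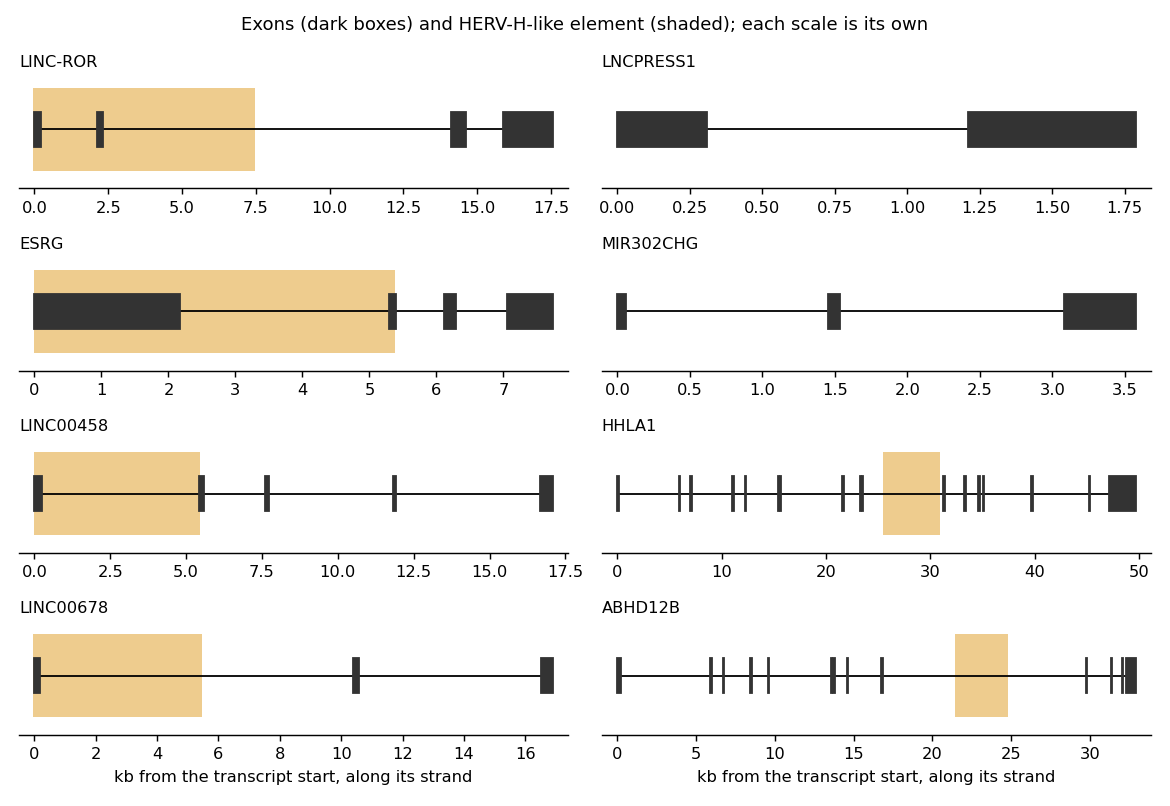
Exons of the transcript chosen for each of the 8 genes (dark boxes) and the outer limits of the HERV-H-like element (shaded), against the distance in kb from the transcript start, with a scale of its own for each gene. The element covers the start in the 4 genes at the left, is absent from LNCPRESS1 and MIR302CHG, and lies more than 20 kb inside HHLA1 and ABHD12B.

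The first exons of the 4 lncRNAs that start in the element were close copies of each other. Over 6 pairs, aligned stretches of 190 to 251 bases had 91.1% to 95.8% identity. Each of these exons also had many near copies elsewhere in GRCh38, at 90% identity or more over at least 150 bases: 518 places for LINC-ROR, 241 for the 2167-base exon of ESRG, 642 for LINC00458 and 726 for LINC00678. No exon of 150 bases or more downstream of the element had any (shorter exons could not meet this rule), and the second exon of LINC-ROR, itself inside the element, had 375 places. LNCPRESS1 and MIR302CHG each had 1 exon with a single near copy elsewhere. Reads that align at several places were counted at each of them, and how many counts of these genes came from such reads was not tested.

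ESRG (ENSG00000265992) is a lncRNA known as a marker of undifferentiated primed cells. ESRG-201 lies on the minus strand of chromosome 3 from 54632122 to 54639857. It had 1616 and 1567 counts in the naïve libraries against 14172 and 12118 in the primed ones, or 70.1 and 61.5 against 482 and 396 CPM. Both primed libraries were well above both naïve libraries. The difference was 2.74 ± 0.15 on the log2 scale (SE, 2 libraries per state), a 6.67-fold higher level in primed hESCs, by the quasi-likelihood test of edgeR (adjusted p = 6.9e-20).

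ESRG lies inside the span of CACNA2D3, which encodes a calcium channel subunit on the other strand, and alignments over the shared bases were counted for both genes. Outside the ESRG span, CACNA2D3 had 216 and 234 counts in the naïve libraries against 435 and 555 in the primed ones. There it differed by 0.83 ± 0.17 on the log2 scale, against 2.74 over the ESRG span.

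LINC00678 (ENSG00000254934), a lncRNA on the minus strand of chromosome 11 from 27617626 to 27634522, showed the widest difference of the 8 genes. LINC00678-201 had 172 and 199 counts in the naïve libraries, which is 7.46 and 7.81 CPM. In the primed libraries it had 5789 and 5691 counts, which is 197 and 186 CPM. The replicates lay close together in both states, and the level in primed hESCs was 25.03-fold higher (log2 4.65 ± 0.17, adjusted p = 1.7e-26 from edgeR's quasi-likelihood test). Only 919 of 27632 genes had a larger log2 fold change.

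The LINC00678 span sits within that of BDNF-AS, an antisense lncRNA of the neurotrophin gene BDNF. BDNF-AS outside this span had 33478 and 34622 counts in the naïve libraries against 27349 and 32040 in the primed ones. Its log2 difference there was −0.51, or 0.13 with library size in place of TMM, so it shared neither the size nor, under TMM, the direction of the LINC00678 difference.

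LINC00458 (ENSG00000234787) is a lncRNA on the minus strand of chromosome 13. LINC00458-201, its transcript with the largest count (54115783 to 54132866), had 216 and 361 counts in the naïve libraries against 5627 and 5110 in the primed ones. These correspond to 9.37 and 14.2 CPM against 191 and 167 CPM. The groups did not overlap and the level was 15.2-fold higher in primed hESCs (log2 3.92 ± 0.18, adjusted p = 3.0e-23, edgeR).

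The isoforms of LINC00458 separate the element from the sequence downstream. LINC00458-204, from 54115849 to 54127343, begins just downstream of the element. It had 6 and 5 counts in the naïve libraries against 3600 and 2987 in the primed libraries. As a share of the alignments over LINC00458-201 this was 2.78% (95% Wilson interval 1.28 to 5.93) and 1.39% (0.593 to 3.20) in naïve hESCs. The share in primed hESCs was 64.0% (62.7 to 65.2) and 58.5% (57.1 to 59.8). Thus few of the naïve alignments over LINC00458-201 overlapped the span of LINC00458-204, while most of the primed ones did. That span holds introns and part of the second exon, so an overlap need not reach a later exon. The first exon has near copies elsewhere, and how many of the alignments on it came from them was not tested.

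The downstream span alone, which passed the count minimum only through the primed libraries, differed by 8.89 ± 0.26 on the log2 scale. Alignments limited to the element side numbered 210 and 356 in the naïve libraries against 2027 and 2123 in the primed ones, a log2 difference of 2.58 ± 0.17. Only 95 and 99 of the primed alignments over LINC00458-201, and 0 of the naïve ones, missed the span of the isoform from 54126862 to 54132866, which holds the element and the second exon.

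Isoform fractions were compared as well. The isoform fraction was taken as the share of a gene's length-scaled counts that falls to an isoform, and dIF as the fraction in primed minus that in naïve hESCs. Of 36 member isoforms tested, 1 passed both thresholds, 0.05 for the adjusted p and 0.1 for the size of dIF, against 0.553% of the 159577 isoforms tested in all. It was LINC00458-204, whose fraction was 0.732% in naïve and 18.04% in primed hESCs, a dIF of 0.17 (adjusted p = 1.7e-06, edgeR's diffSpliceDGE). ESRG has a single transcript and could not be tested. Without the division by length the dIF did not reach 0.1, and with either primed library left out the isoform fell below the count minimum. It entered the test only through the primed libraries, where it is high, so the call is no support apart from the counts given above.

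LINC-ROR (ENSG00000258609), a lncRNA named for its role in reprogramming, was the least abundant member. LINC-ROR-201 lies on the minus strand of chromosome 18 from 57054558 to 57072119, and no other annotated gene overlaps it. It had 52 and 64 counts in the naïve libraries against 124 and 99 in the primed ones, or 2.26 and 2.51 against 4.22 and 3.23 CPM. Although the groups did not overlap, the primed level was only 1.56-fold higher (log2 0.64 ± 0.25, adjusted p = 0.020, edgeR). The call was lost under DESeq2 (adjusted p = 0.12) and when naïve replicate 1 (0.13), naïve replicate 2 (0.055) or primed replicate 1 (0.097) was left out. Across its 11 alternatives the adjusted p ranged from 1.0e-04 to 0.13.

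Within LINC-ROR, the outermost bases and the rest of the span moved in opposite directions. LINC-ROR-207 lacks 60 bases at the upstream end, inside the element, and 33 bases at the other end. Alignments over LINC-ROR-201 that missed LINC-ROR-207 numbered 19 and 23 in the naïve against 4 and 1 in the primed libraries. They made up 36.5% (24.8 to 50.1) and 35.9% (25.3 to 48.2) of the naïve alignments, but only 3.23% and 1.01% of the primed ones, with upper limits that stayed under the lower limits of both naïve libraries. The LINC-ROR-207 span itself had 33 and 41 against 120 and 98 counts. Its log2 difference was 1.25 ± 0.26 (adjusted p = 7.0e-05, edgeR), against −3.31 ± 0.57 for the outer edges. The outer edges passed the count minimum only through the naïve libraries, where they are high. Their fit is thus no support apart from the counts given above.

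Several members had isoforms with nearly equal counts, because their spans share most bases. LINC00678-202 had 173 and 205 counts in naïve and 5750 and 5656 in primed hESCs, close to LINC00678-201. The other isoforms of LINC00458 that start at or before the element had the same 216 and 361 naïve counts as LINC00458-201 and between 4996 and 5548 primed counts. For LINC-ROR, the 3 isoforms that start farther downstream, at 57070003, had 27 and 35 naïve against 94 and 65 primed counts.

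**Figure D2:**
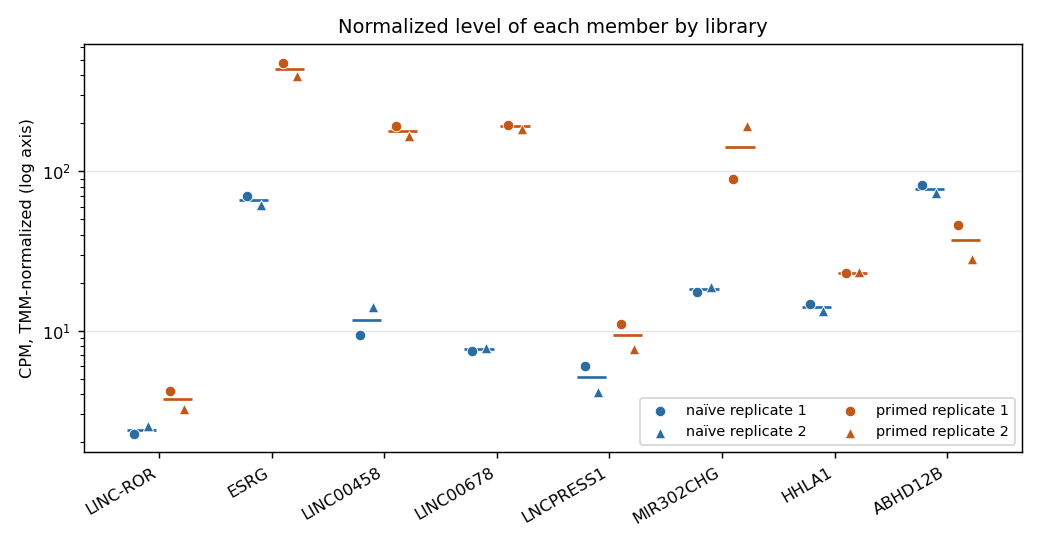
TMM-normalized CPM on a log axis for the 8 genes, with naïve libraries in blue, primed libraries in orange, replicate 1 as circles, replicate 2 as triangles and the mean of a state as a line. The primed libraries lie above the naïve ones in 7 genes and below them in ABHD12B, and the 2 primed libraries stand apart in MIR302CHG, at 89.9 and 194 CPM.

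LNCPRESS1 (ENSG00000232301) is a lncRNA that p53 represses and that binds the histone deacetylase SIRT6. LNCPRESS1-201 lies on the plus strand of chromosome 7 from 101299558 to 101301346, away from other annotated genes. Counts were 139 and 106 in the naïve libraries against 323 and 237 in the primed ones, which is 6.03 and 4.16 against 11.0 and 7.74 CPM. The lowest primed value was above the highest naïve value, with a 1.84-fold higher level in primed hESCs (log2 0.88 ± 0.20, adjusted p = 2.0e-04, edgeR). LNCPRESS1-202 had the same counts in all 4 libraries. SIRT6 itself was not called, at 57 and 52 against 60 and 80 counts (log2 0.05 ± 0.27, adjusted p = 0.88, edgeR), although library size in place of TMM called it higher (log2 0.69, adjusted p = 0.024).

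MIR302CHG (ENSG00000249532) hosts the miR-302 and miR-367 cluster, the miRNAs best known from human pluripotent cells, which repress inhibitors of the cell cycle. MIR302CHG-203 lies on the minus strand of chromosome 4 from 112646476 to 112650051 and contains all 5 hairpins. The mature 3p strands, from RefSeq on GRCh38.p14, are shown 5′ to 3′ because the cluster is what this locus is known for, with the seeds (bases 2 to 8) in capitals.
miR-302b-3p: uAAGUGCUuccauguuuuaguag
miR-302c-3p: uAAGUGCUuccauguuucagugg
miR-302a-3p: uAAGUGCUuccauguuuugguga
miR-302d-3p: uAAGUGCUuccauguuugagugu
miR-367-3p: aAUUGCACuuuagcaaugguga
The 4 miR-302 strands share the seed AAGUGCU, whereas miR-367-3p has the seed AUUGCAC. From MIR302B to MIR367 they lie at chr4:112648489-112648511, chr4:112648366-112648388, chr4:112648186-112648208, chr4:112648006-112648028 and chr4:112647877-112647898.

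RefSeq gives 2 start sites for MIR302CHG, and the 250 bases before each are shown since this locus rose without an element of its own. Capitals mark matches, on either strand, to 4 motifs: the octamer ATGCAAAT of POU factors, the SOX core CTTTGT, the TATA box TATAAA and the GC box GGGCGG.
MIR302CHG upstream start, chr4:112650052-112650301, minus strand: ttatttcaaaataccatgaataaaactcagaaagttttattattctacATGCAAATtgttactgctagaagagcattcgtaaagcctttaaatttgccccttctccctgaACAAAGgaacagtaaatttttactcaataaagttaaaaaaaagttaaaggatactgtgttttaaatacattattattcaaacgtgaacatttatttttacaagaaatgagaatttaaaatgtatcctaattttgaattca
MIR302CHG downstream start, chr4:112648704-112648953, minus strand: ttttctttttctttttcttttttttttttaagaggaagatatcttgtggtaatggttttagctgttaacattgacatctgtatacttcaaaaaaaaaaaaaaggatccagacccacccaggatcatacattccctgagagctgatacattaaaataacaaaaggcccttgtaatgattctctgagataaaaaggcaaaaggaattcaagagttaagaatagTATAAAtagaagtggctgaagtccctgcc
The upstream start held an octamer 202 to 195 bases before it, a motif that 1.63% of 35116 RefSeq promoter windows of this length hold, and a SOX core, which 13.7% hold. The downstream start held a TATA box 29 to 24 bases before it, as 10.7% of windows do. These matches are descriptions of the letters and not binding sites.

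MIR302CHG-203 had 403 and 483 counts in the naïve libraries against 2645 and 5933 in the primed ones. Normalized, these were 17.5 and 19.0 against 89.9 and 194 CPM. The level was 7.78-fold higher in primed hESCs (log2 2.96 ± 0.20, adjusted p = 6.5e-17, edgeR), with the widest spread between replicates of any member, 142 ± 73.4 CPM (SD, n = 2) in the primed state. Without primed replicate 1 the log2 difference was 3.58, and without primed replicate 2 it was 2.47.

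Nearly all of the difference between the primed libraries lay on a single stretch. LARP7, which encodes a protein bound to the 7SK RNA, spans MIR302CHG on the other strand, and several of its transcripts end inside MIR302CHG. Between the ends of LARP7-206 and LARP7-205, over 547 bases from 112646903 to 112647449 inside MIR302CHG plus 69 bases at the LARP7 start, there were 50 and 52 alignments in the naïve libraries. The primed libraries had 481 and 3674 there, which accounted for 97.1% of the difference of 3288 counts between the primed replicates over MIR302CHG-203. With those counts subtracted, MIR302CHG-203 had 353 and 431 counts against 2164 and 2259, and the 2 primed libraries stood at 73.6 and 73.7 CPM. Reads of MIR302CHG and LARP7 cannot be told apart in this stretch because strand was ignored.

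At other stretches of MIR302CHG the primed replicates lay together. On a stretch of LARP7-206 not shared with LARP7-207, made up of 231 bases of the last exon of MIR302CHG and 6779 bases of LARP7 outside it, alignments numbered 243 and 253 in the naïve libraries against 1759 and 1788 in the primed ones (log2 2.53 ± 0.16, adjusted p = 2.9e-17, edgeR). Over everything outside MIR302CHG, LARP7 had only 55 and 96 against 162 and 157 counts, a log2 difference of 0.78 ± 0.23.

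All 5 hairpins had more alignments in primed hESCs. The MIR367 hairpin, nearest to the last exon, had 12 and 20 counts in the naïve libraries against 358 and 349 in the primed ones (log2 4.15 ± 0.26). The 4 MIR302 hairpins had 1 or 2 counts in naïve replicate 1, 6 or 8 in naïve replicate 2, and between 74 and 139 in the primed libraries. Their log2 differences were 4.78 for MIR302D, 4.49 for MIR302A, 4.46 for MIR302C and 3.87 for MIR302B. These 4 passed the count minimum only through the primed libraries. The same alignments can cover several hairpins, and counts over a hairpin are of longer transcripts and not of the mature miRNA, which these libraries do not measure.

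**Figure D3:**
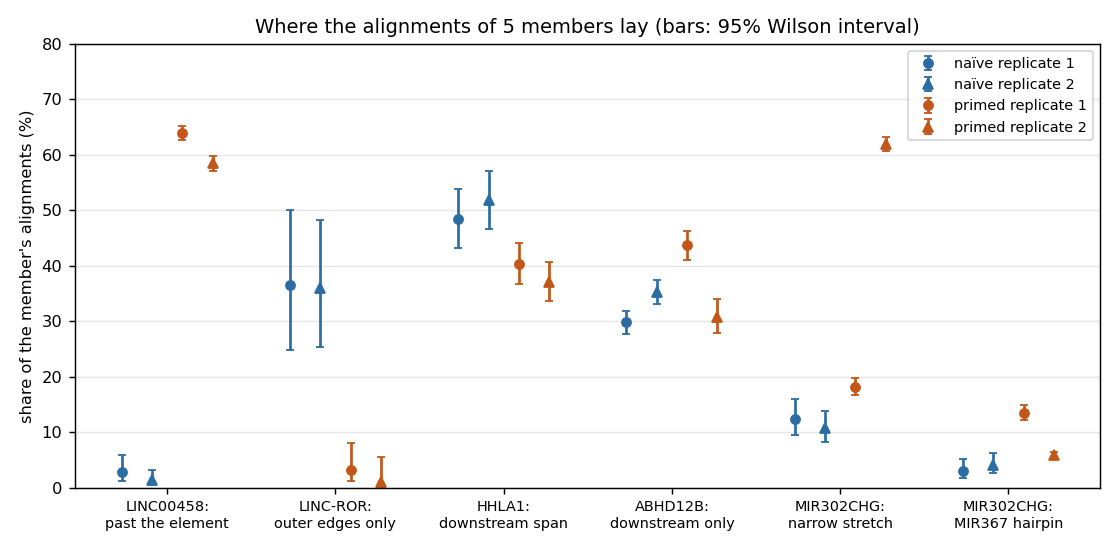
Share of the alignments over a member's chosen transcript that lay on the named stretch, in percent, with the 95% Wilson interval as bars, for naïve (blue) and primed (orange) libraries. LINC00458 alignments past the element make up 1.39% to 2.78% in naïve and 58.5% to 64.0% in primed libraries, the outer edges of LINC-ROR show the opposite order, and the narrow MIR302CHG stretch stands apart in primed replicate 2 alone.

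HHLA1 (ENSG00000132297) is named for the HERV-H repeat next to it and has been reported to be transcribed together with its neighbour OC90, which encodes a protein of the inner ear. HHLA1-201 lies on the minus strand of chromosome 8 from 132061480 to 132111157. It had 338 and 341 counts in the naïve libraries against 673 and 712 in the primed ones, or 14.7 and 13.4 against 22.9 and 23.2 CPM. Replicates were close in both states and the primed level was 1.65-fold higher (log2 0.72 ± 0.16, adjusted p = 9.0e-05, edgeR).

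A protein-coding gene of its own in the annotation (ENSG00000258417) has a single counted transcript that starts at the upstream end of the element in HHLA1, at 132085655, and runs to OC90. It had 338 and 339 counts against 689 and 717, nearly those of HHLA1-201, and a log2 difference of 0.74 ± 0.16. OC90 itself had 1 and 1 counts against 13 and 9, too few to be tested. The element thus marks the start of an annotated transcript at this locus, but counts over the shared bases enter both genes and do not tell which start was used.

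Within HHLA1, counts could be taken apart around the element. HHLA1-202, which spans the downstream end of the element and the exons after it, had 164 and 177 counts against 272 and 264 and did not pass the test (log2 0.35 ± 0.18, adjusted p = 0.084, edgeR). It passed with library size in place of TMM (adjusted p = 4.8e-05) and without primed replicate 2 (0.031). Alignments that missed HHLA1-202 numbered 174 and 164 against 401 and 448, a log2 difference of 1.02 ± 0.17. The share on HHLA1-202 was 48.5% and 51.9% in naïve and 40.4% and 37.1% in primed hESCs.

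ABHD12B (ENSG00000131969), which encodes a protein with an abhydrolase domain, was the one member lower in primed hESCs. ABHD12B-201 lies on the plus strand of chromosome 14 from 50872053 to 50904970. It had 1900 and 1869 counts in the naïve libraries against 1361 and 863 in the primed ones, which is 82.4 and 73.3 against 46.3 and 28.2 CPM. Both primed libraries were below both naïve libraries, by 2.09-fold (log2 −1.07 ± 0.16, adjusted p = 3.0e-07, edgeR). The direction was the same under the other scalings, with a log2 difference of −0.42 for library size (adjusted p = 0.035) and −1.11 for DESeq2 (0.0055). Without primed replicate 2, the lower of the primed libraries, it was −0.59 (adjusted p = 0.0085, edgeR).

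For comparison with the MIR302CHG starts, the 250 bases before the RefSeq starts of ABHD12B and LNCPRESS1 are shown, these being the other members with an entry in the promoter table and a start away from any element. Capitals mark the same motifs, and the RefSeq start of LNCPRESS1 is that of LNCPRESS1-202.
ABHD12B, chr14:50871803-50872052, plus strand: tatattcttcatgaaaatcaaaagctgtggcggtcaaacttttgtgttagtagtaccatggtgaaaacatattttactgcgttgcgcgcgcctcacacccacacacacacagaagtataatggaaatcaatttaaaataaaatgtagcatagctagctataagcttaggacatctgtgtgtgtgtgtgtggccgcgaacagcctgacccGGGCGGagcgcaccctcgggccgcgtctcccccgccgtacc
LNCPRESS1, chr7:101299363-101299612, plus strand: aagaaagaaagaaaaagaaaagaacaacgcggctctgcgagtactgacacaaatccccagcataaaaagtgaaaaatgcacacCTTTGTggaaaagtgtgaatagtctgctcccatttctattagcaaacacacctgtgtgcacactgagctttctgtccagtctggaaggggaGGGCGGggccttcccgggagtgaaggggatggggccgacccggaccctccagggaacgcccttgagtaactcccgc
Each held a GC box, as 42.6% of the windows do, and LNCPRESS1 a SOX core as well. The GC content was 48.4% and 52% in these windows against 25.6% and 32.8% before the 2 starts of MIR302CHG.

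The element of ABHD12B lies in an intron of ABHD12B-201, and 2 of its 9 transcripts start in it. Alignments over ABHD12B-205, which ends within the first bases of the element, numbered 1334 and 1209 in the naïve libraries against 766 and 597 in the primed ones (log2 −1.21 ± 0.16, adjusted p = 1.5e-08, edgeR). Those that missed ABHD12B-205, nearly all of them from the element onward, numbered 566 and 660 against 595 and 266. This second set was lower in the TMM fit (log2 −0.81 ± 0.20, adjusted p = 6.4e-04, edgeR), but not with library size (log2 −0.17, adjusted p = 0.54) or without primed replicate 2 (log2 −0.15, adjusted p = 0.49). Only 3 and 3 naïve and 10 and 18 primed alignments missed ABHD12B-208, so nearly all alignments of this gene reached the span of ABHD12B-208, from 50891074 to 50904831, which includes the element.

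The span of ABHD12B lies wholly inside that of PYGL-205, a transcript of the liver glycogen phosphorylase gene on the other strand. Outside ABHD12B, PYGL-205 had 926 and 925 counts in the naïve libraries against 408 and 372 in the primed ones. PYGL there was lower in primed hESCs as well (log2 −1.56 ± 0.16, adjusted p = 2.3e-11, edgeR), and reads from its unspliced RNA cannot be told apart from those of ABHD12B inside the shared bases.

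By the edgeR test, all 8 members were called, 7 higher and 1 lower in primed hESCs, against 70.0% of all genes called, 37.4% higher and 32.6% lower. With library size the members' calls were the same 7 and 1, against 72.5% of all genes, 56.2% higher and 16.3% lower. Under DESeq2 7 members were called, 6 higher and 1 lower, against 58.7% of all genes, 29.1% higher and 29.6% lower. The states did not overlap in any of the 8, as was the case for 84.4% of the genes tested. A call by itself therefore says little about these genes, and their sizes say more: in the TMM fit the median log2 fold change of the 8 was 1.81 against 0.079 over all genes, with 4 members over 4-fold higher and 3 between 1.5-fold and 2-fold higher. The ranks of LINC-ROR, HHLA1 and LNCPRESS1 were moderate, above 64.2%, 65.9% and 69.1% of genes, while ESRG, MIR302CHG, LINC00458 and LINC00678 were above 90.2%, 91.4%, 95.1% and 96.7%. Scaling moved all members together. Relative to the median of all genes, each member's log2 difference changed by less than 0.01 between TMM, library size and DESeq2, for example 4.57 under each for LINC00678.

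**Figure D4:**
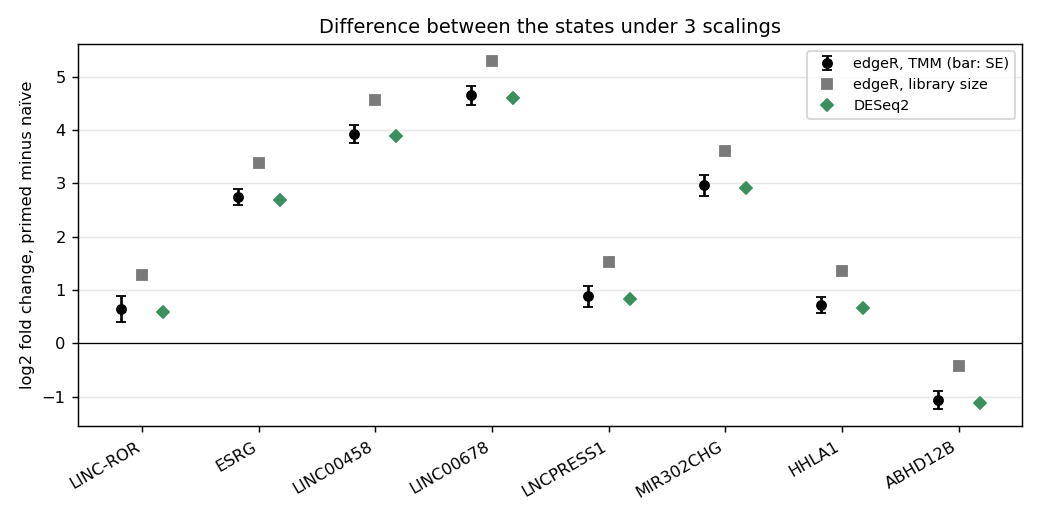
Log2 fold change of each gene, primed minus naïve, under edgeR with TMM (circles, bars are SE), edgeR with library size (squares) and DESeq2 (diamonds). Library size places every gene about 0.64 higher, and ABHD12B stays below 0 and the other 7 genes above 0 under all 3 scalings.

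Levels between genes were compared as CPM per kb of exonic sequence. In naïve hESCs the order was ABHD12B with 42.9 ± 3.55 (SD, n = 2), MIR302CHG with 28.5 ± 1.62, ESRG with 21.0 ± 1.95, LINC00458 with 11.1 ± 3.20, LINC00678 with 9.71 ± 0.310, LNCPRESS1 with 5.74 ± 1.49, HHLA1 with 3.35 ± 0.217 and LINC-ROR with 0.915 ± 0.0691. The ranges of LINC00458 and LINC00678 overlapped, and those of the other neighbours did not. In primed hESCs LINC00678 led with 243 ± 9.95, followed by MIR302CHG with 222 ± 115, LINC00458 with 169 ± 16.4 and ESRG with 140 ± 19.4. The range of MIR302CHG covered those of LINC00678, LINC00458 and part of that of ESRG, so this order is not settled. ABHD12B, at 20.5 ± 7.05, stood below these 4, and LNCPRESS1, HHLA1 and LINC-ROR kept the last 3 places with 10.6 ± 2.59, 5.51 ± 0.0607 and 1.43 ± 0.267. Counts include introns, which the exonic length leaves out.

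For each member, the gene with the smallest Euclidean distance over the 4 libraries in log2(CPM + 0.5) was taken from the genes tested. Members, and genes with a transcript that overlaps the member's chosen transcript, were left out. This rule removed ENSG00000258417, which starts at an element and has nearly the counts of HHLA1, and CACNA2D3, which shares most counts with ESRG. The genes nearest to ESRG, LINC00458 and LINC00678 were 3 lncRNAs without a symbol, ENSG00000254339 (distance 0.31), ENSG00000289479 (0.70) and ENSG00000274090 (0.31). All 3 start within 100 bases of a HERV-H-like element of the same direction, as do 50 of the 27632 genes tested, or 0.181%. ENSG00000274090 had 154 and 177 counts in the naïve libraries against 6729 and 5868 in the primed ones, much like LINC00678. The first exons of such genes are near copies, and how many alignments were counted at several of them was not tested. The genes nearest to the other 5 members held no such element in their spans: VAC14-AS1 for LINC-ROR (0.089), ENSG00000257386 for LNCPRESS1 (0.25), XACT for MIR302CHG (0.94), PTPRG-AS1 for HHLA1 (0.14) and OAT for ABHD12B (0.20). XACT is a lncRNA that coats the X chromosome in human pluripotent cells.

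**Figure D5:**
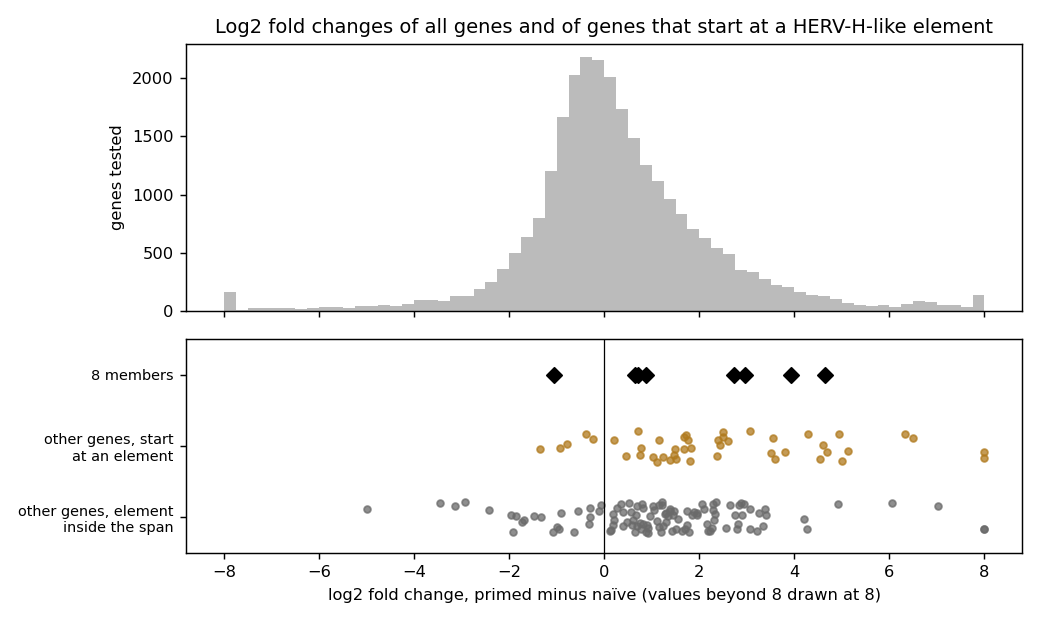
Log2 fold change, primed minus naïve, as a histogram over the 27632 genes tested (top) and as points (bottom) for the 8 members, for 46 other genes that start at a HERV-H-like element and for 114 other genes with the element inside the span, with values beyond 8 on either side drawn at 8. Most points of both other groups lie above 0, and 39 and 76 of them were called higher, against 37.4% of all genes. However, 8 and 12 of these genes passed the count minimum only through the primed libraries.

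Further genes of these pathways were taken from lists and are described by counts. Of 8 other genes linked to HERV-H, 6 were tested and 3 were higher in primed hESCs, against 37.4% of all genes. They were C4orf51 with 701 and 826 against 2551 and 2083 counts (log2 1.30 ± 0.15), RPL39L (1.12 ± 0.14) and LINC01108 (2.95 ± 0.29), while the other 3 did not pass the test. The median of the 6 was 0.65. With library size, all 6 were called higher, against 56.2% of all genes.

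Among 9 proteins reported to act on HERV-H or LTR7, 3 were higher and 4 lower, with a median log2 difference of −0.26, where 37.4% of all genes were higher and 32.6% lower. With library size 5 were higher and 3 lower, with a median of 0.37, against 56.2% and 16.3% of all genes, so the list had no direction that held under both scalings. SOX2, a partner of POU5F1 on many pluripotency enhancers, rose from 659 and 828 counts in the naïve to 4130 and 5430 in the primed libraries (log2 2.38 ± 0.16). NANOG, KLF4 and TFCP2L1, all factors of the naïve network, had log2 differences of −1.62, −2.68 and −3.25. POU5F1 was not called under TMM (log2 −0.05 ± 0.14, adjusted p = 0.77, edgeR) and was higher with library size (log2 0.60, adjusted p = 2.0e-04). Binding to the elements was not measured here.

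Of 9 repressors of endogenous retroviruses, 3 were higher, 3 lower and 3 not called, with a median log2 difference of 0.15, near the shares of all genes. With library size 6 were higher and 1 lower, with a median of 0.79, where 56.2% and 16.3% of all genes were higher and lower and their median was 0.72. TASOR, a subunit of the HUSH complex, was 2.03 ± 0.20 higher and the chromatin assembly subunit CHAF1A 1.02 ± 0.15 higher on the log2 scale. MORC3 was lower by 1.55 on that scale under TMM (log2 −1.55 ± 0.16). MPHOSPH8 (log2 −0.61) and the methyltransferase DNMT1 (log2 −0.59) were lower under TMM and took a positive sign with library size, at 0.03 and 0.04, where neither was called.

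Most reported targets of the miR-302 family were lower in primed hESCs. Of 12 targets, 8 were lower, 1 was higher and 3 were not called, with a median log2 difference of −1.25 against 0.079 for all genes. Of all genes, 32.6% were lower and 37.4% higher. With library size, 6 targets were lower and 4 higher, with a median of −0.61 against 0.72. Under that scaling, 16.3% of all genes were lower and 56.2% higher. CDKN1A, the cell cycle inhibitor p21, had 3592 and 3635 counts in the naïve libraries against 447 and 499 in the primed ones (log2 −3.24 ± 0.16). NR2F2, an orphan nuclear receptor, had 97 and 144 against 2 and 2 counts and so passed the count minimum only through the naïve libraries. The Hippo kinase LATS2 (−1.47 ± 0.16), the Nodal inhibitor LEFTY2 (−1.82 ± 0.24), DAZAP2 (−1.72 ± 0.15) and the small GTPase RHOC (−1.94 ± 0.15) were lower too. TGFBR2, a receptor for TGF-β, went the other way (1.82 ± 0.24). Whether the miRNAs act on these genes was not tested.

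Of 5 other lncRNAs and miRNA hosts of pluripotent cells, 4 were higher in primed hESCs, against 37.4% of all genes and 45.8% of the lncRNA genes tested. With library size all 5 were called higher, against 56.2% of all genes. TUNAR had 15 and 19 counts in the naïve libraries against 297 and 300 in the primed ones (log2 3.82 ± 0.26), LNCPRESS2 363 and 414 against 2734 and 2482 (2.44 ± 0.16), DANCR 819 and 705 against 4072 and 3705 (2.04 ± 0.16), and MIR17HG, the host of the miR-17/92 cluster, 12 and 19 against 83 and 101 (2.26 ± 0.32). GAS5 was lower under TMM (log2 −0.36 ± 0.14) and higher with library size (0.28), and its call was lost without naïve replicate 1 (adjusted p = 0.071), primed replicate 1 (0.46) or primed replicate 2 (0.27).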

How the data were processed

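Nanopore cDNA libraries of H1 naïve and primed hESCs, 2 per state, were used as deposited. The authors aligned reads to GRCh38 with minimap2 and counted alignments per transcript of Ensembl release 105 with featureCounts 2.0.0 (options -L -O -M, strand not set). The deposited values are raw counts over whole transcript spans, so that isoforms share alignments, genes that overlap cannot be separated and reads that align at several places count at each. Of 244825 transcripts, 242542 had their identifier in GENCODE release 44. The 2283 others, with 1.0% of the counts, were left out.

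The test took genes that reached 10 counts in 2 libraries or more and used edgeR 4.0.16 in R 4.3.3 (TMM, glmQLFit, glmQLFTest, state as the only term), and for isoforms diffSpliceDGE, with Benjamini-Hochberg adjustment over all genes or isoforms tested and two-sided tests. Counts of nested spans were subtracted to count alignments on a stretch, and these rows were fitted together with all genes. Sequence matches came from blastn 2.17.0 and mature miRNA and upstream sequences from RefSeq tables, in which 3 of the 8 members had an upstream entry. The tests were checked on simulated counts. A count of 0 allows up to 3 counts, between 0.0186 and 0.0232 CPM of the total counts over all transcripts. The CPM given elsewhere use smaller TMM-scaled totals over genes, from 23044849 to 30632534, on which 3 counts are a higher CPM. Intervals cover counting error only. Alternatives were library size, DESeq2 1.42.0, a replicate block, other filters, other choices of transcript and each library left out; the fits of stretches and the isoform fraction without length were added after the data were seen.

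The members, lists and stretches were chosen with earlier results of these data known. Genes named are the members, genes that overlap them, the nearest gene of each, genes of the lists and markers; ENSG00000258417 and the rule for other genes that start at an element were chosen after values were seen.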

Additional observations from a re-analysis of the deposited data

How the results depend on the processing

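All 8 members were called and kept their direction with library size, without a count filter, with at least 50 counts, with counts summed over transcripts and in the fit with the replicate block, and 7 were called under DESeq2. With a library left out, 7 to 8 members were called, and LINC-ROR was the exception each time. Under a log2 threshold of 1, 5 members were called, against 13015 of all 27632 genes tested. Transcripts that overlap no other gene were found for 3 members, all 3 called, against 9360 of 13431 genes. Of all genes, 20043 of 27632 were called with library size and 16212 of 27632 under DESeq2. Without a count filter 21141 of 50139 were called, with at least 50 counts 13804 of 18954 and with summed counts 18583 of 29356. LNCPRESS1 ranged from 0.57 to 1.52 on the log2 scale over its alternatives, and ABHD12B from −1.30 to −0.42, with −0.59 without primed replicate 2.

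The replicate numbers showed no visible pairing of the libraries: the correlation of replicate differences between the states was 0.041, and no source says that a number marks a shared culture. A single correlation from so few libraries cannot decide whether they were paired. With the replicate block 8 members, 59 listed genes and 1 member isoform were called, and 19689 genes in all against 19334.

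The isoform call of LINC00458-204 was lost at a dIF threshold of 0.2 (0 called), for fractions without length (0 called) and without either primed library, where 0 to 1 isoforms were called over the 4 libraries left out. Of 72 list genes tested, 58 were called in the main fit, against 70.0% of all genes. With a library left out, fewer list genes passed the count filter, so their calls there cannot be set against the 58. Signs turned for POU5F1, at 0.60 with library size and 0.051 with at least 50 counts, and with a library left out it ranged from −0.26 to 0.16. With library size they also turned for MPHOSPH8 (0.030), DNMT1 (0.040), GAS5 (0.28), BDNF-AS outside LINC00678 (0.13), and the listed genes CALB1 (0.42), EP300 (0.37), CREBBP (0.26), SETDB1 (0.56), KDM1A (0.33) and KLF17 (0.23), and for SIRT6 under DESeq2 (−0.0044), with a range of −0.15 to 0.38 over the libraries left out. The causes were not tested. LARP7 outside MIR302CHG lost its call without naïve replicate 1 (log2 0.44, adjusted p = 0.15, edgeR). Genes called in all numbered 9360 of 13431 under transcripts that overlap no other gene. With 2 libraries per state, precision rests on few values, and LINC-ROR and the hairpins in the naïve libraries rest on few counts.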

Other observations

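Other genes that start at a HERV-H-like element mostly had the same direction as the 4 lncRNAs above. They were taken as genes whose counted transcript, the one with the largest mean count, starts within 100 bases of a match to the first exon of ESRG (at least 150 bases at 80% identity or more, same direction), and numbered 49 besides the members, of which 46 were tested. Of these, 39 were higher in primed hESCs, 4 were lower and 3 were not called by edgeR's quasi-likelihood test. However, 8 of the 46 passed the count minimum only through the primed libraries and could be found only if higher there. Of the other 38, 31 were higher, 4 lower and 3 not called. Among all genes tested 37.4% were called higher, and among the 7327 lncRNA genes tested 45.8%, with the same filter. With library size 41 of the 46 were higher and 1 lower, against 56.2% and 16.3% of all genes. Under DESeq2 38 were higher and 3 lower, against 29.1% and 29.6% of all genes. Not all of these genes are separate observations. LINC02474, with 608 and 660 against 2401 and 2038 counts, nearly repeats LINC02257, with 615 and 668 against 2395 and 2035. ENSG00000258417, also among the 46, has nearly the counts of the member HHLA1. How many alignments were counted at several of these genes was not tested.

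Of this group, ENSG00000289195 had 3 and 3 counts in the naïve libraries against 1922 and 1931 in the primed ones, and ENSG00000289533 had 7 and 9 against 3545 and 3954, both being among the 8 genes that passed through the primed libraries. Of the listed genes above, LNCPRESS2, RPL39L and CALB1 also start at such an element, and CALB1, with 1019 and 1027 against 1254 and 907 counts, was not called under TMM (log2 −0.23, adjusted p = 0.19, edgeR). The 4 lower genes were TFPI, an inhibitor of coagulation, with 1233 and 1369 against 596 and 661 counts (log2 −1.36), ENSG00000250920 (−0.92), LINC02617 (−0.79) and LINC02582 (−0.39), the last of which was positive, at 0.25, with library size.

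Where the element lay inside the span and away from the start, in 114 further genes tested, 76 were higher, 18 lower and 20 not called, and 12 of them passed the count minimum only through the primed libraries and 1 only through the naïve ones. Of the other 101, 65 were higher, 17 lower and 19 not called, against 37.4% higher and 32.6% lower among all genes. With library size 93 of the 114 were higher and 14 lower, where 56.2% and 16.3% of all genes were. Under DESeq2 66 were higher, 20 lower and 28 not called, where 29.1% of all genes were higher and 29.6% lower. These genes are not all separate observations either. PRB2, with 307 and 303 against 1232 and 1303 counts, nearly repeats ENSG00000255790, with 307 and 303 against 1225 and 1300.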
